A study of Mus musculus with 4 samples.

Results

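The genes described here encode the enzymes that carry glucose to lactate, the enzymes that switch this route on and off, and the enzymes that build and break down glycogen. The set was chosen by name, and the set and the classes used below were chosen with earlier results of these data known. The 31 symbols and pyruvate kinase M, listed as Pkm2, gave 32 genes of the 21965 with a usable value in both libraries. Sciatic nerves of control mice and of Zeb2 cKO mice (a conditional knockout of Zeb2, a zinc finger transcription factor) were collected at postnatal day 7, and both groups were on a mixed strain background. Nerves were pooled before RNA was extracted, and the labels name neither the Cre line nor the deleted part of Zeb2. The labels describe 4 samples, 2 in each group, and the tables used here hold 1 library for each group. No value therefore has a replicate behind it, no test between the groups was possible, and every difference is a difference between 2 libraries of pooled nerves.

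Glycolysis splits glucose into pyruvate in the cytosol, and lactate dehydrogenase or the pyruvate dehydrogenase complex decides where pyruvate goes next. Many of the steps are carried out by isoenzymes, proteins from separate genes that run the same reaction and are made in different tissues: skeletal muscle has its own phosphoglycerate mutase, enolase, phosphofructokinase and glycogen phosphorylase, while brain and glia use others. In peripheral nerve, Schwann cells wrap axons with myelin, are known to be strongly glycolytic, and are thought to pass lactate to the axons they enclose.

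Levels are in FPKM, fragments per kilobase of transcript relative to all mapped fragments, summed over the transcripts of a gene, so they can be compared between genes. Between libraries they compare shares of all fragments, which also depend on the levels of other genes. Calls are therefore also given after scaling to the median gene. Folds are plain ratios of FPKM. A gene was called 2-fold apart when log2((FPKM Zeb2 cKO + 1)/(FPKM control + 1)), the log2 ratio below, was at least 1 in size, among genes with a mean of at least 1 FPKM. Intervals are 95% Clopper-Pearson intervals on reads estimated from coverage. They cover counting error only and say nothing of the spread between animals or pools. Zeb2 itself was at 34.4 FPKM in control nerve and 19.5 FPKM in Zeb2 cKO nerve, 1.76-fold lower, the direction of the labels. Defining markers of the tissue were present: 6 measured markers of myelinating Schwann cells summed to 15920 FPKM in control nerve and 779 FPKM in Zeb2 cKO nerve. An estimated 29616050 and 20180394 reads lay behind the control and the Zeb2 cKO values.

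All 32 genes passed the filter on low values. In the Zeb2 cKO library 3 were 2-fold or more higher (Aldoc, Pygb and Pygl), 5 were 2-fold or more lower (Aldoa, Pgam2, Eno3, Pdk4 and Pygm) and 24 lay within 2-fold. Of the 12903 genes measured, the same rule called 8.59% higher and 6.25% lower, so the count of higher members is near that background and the count of lower members, at 5 of 32, lies above it. The median log2 ratio was -0.20 for the members and 0.18 for all genes. When the Zeb2 cKO values were divided by 1.1558, which puts the median gene at a log2 ratio of 0.00, 2 members were higher (Aldoc and Pygb) and 8 were lower, Gapdh, Ldhb and Gys1 being added and Pygl lost as a higher call. Against 6.08% higher and 7.42% lower among all genes on that scale, the split of the members leaned further towards lower values. Summed over the 32 genes, the level was 2842 FPKM in control nerve and 1826 FPKM in Zeb2 cKO nerve.

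**Figure D1:**
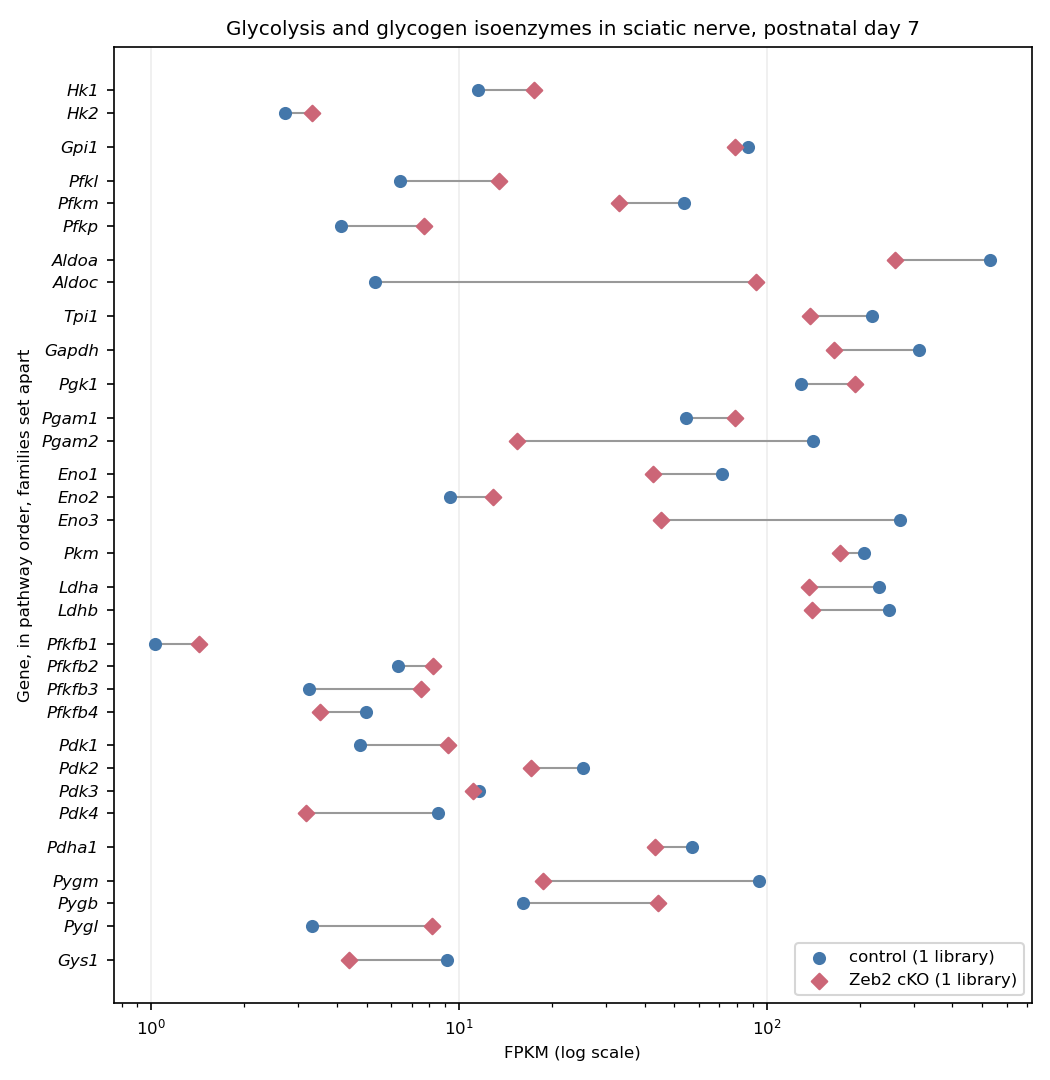
Level of each of the 32 genes in FPKM on a log axis, control library as circles and Zeb2 cKO library as diamonds, joined by a line. The long lines are those of Aldoc, which runs to the right from 5.34 to 92.1 FPKM, and of Pgam2, Eno3 and Pygm, which run to the left.

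Of the 4 muscle isoenzymes, 3 had the lowest log2 ratios of the whole set. Pgam2, the muscle phosphoglycerate mutase (chr11:5701640-5703799 on mm9, the build of all gene positions here), was at 141 FPKM in control nerve and 15.4 FPKM in Zeb2 cKO nerve, 9.19-fold lower (interval of the ratio 0.0971 to 0.122). Eno3, the muscle enolase (chr11:70470715-70476015), was at 270 FPKM in control nerve and 45.1 FPKM in Zeb2 cKO nerve, 5.99-fold lower (ratio 0.159 to 0.176). Pygm, the muscle glycogen phosphorylase (chr19:6384429-6398459), was at 94.1 and 18.7 FPKM, 5.02-fold lower (ratio 0.188 to 0.211). The control library was the higher one for each of these 3 genes, and their log2 ratios ranked 127th, 201st and 251st from the lowest of the 12903 genes measured. Pfkm, the muscle phosphofructokinase (chr15:97923020-97962878), moved less and stayed within 2-fold, with 53.9 FPKM in control nerve and 33.1 FPKM in Zeb2 cKO nerve, 1.63-fold lower (ratio 0.585 to 0.645).

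Together the 4 muscle isoenzymes summed to 560 FPKM in control nerve and 112 FPKM in Zeb2 cKO nerve, 4.99-fold lower, with a median log2 ratio of -2.41. The other 28 members had a median of 0.08, with 3 higher and 2 lower. That median is -0.06 over members at a mean of 5 FPKM or more and -0.10 after scaling to the median gene. Markers of skeletal muscle moved in the same direction. All 26 measured of 26 muscle markers passed the 2-fold rule as lower, their sum was 9448 FPKM in control nerve and 1162 FPKM in Zeb2 cKO nerve (8.13-fold lower), and 0 of them were at 0 in either library. The 16 markers listed as fast, some of which all skeletal fibres make, had log2 ratios from -3.44 to -2.21 with a median of -2.97. The 10 listed as slow or developmental, some of which all skeletal fibres also make, had log2 ratios from -3.79 to -1.47 with a median of -2.37. Both ranges include Pgam2 at -3.12, Eno3 at -2.56 and Pygm at -2.27, and both lie below Pfkm at -0.69. The gene at the highest FPKM in the fast list, skeletal alpha-actin Acta1, is made in all skeletal fibres. Acta1 was at 1879 FPKM in control nerve and 193 FPKM in Zeb2 cKO nerve. The part of muscle RNA in the values of these isoenzymes was not tested. In bulk RNA, fewer cells of a type and less RNA per cell cannot be told apart, here or for any gene below.

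**Figure D2:**
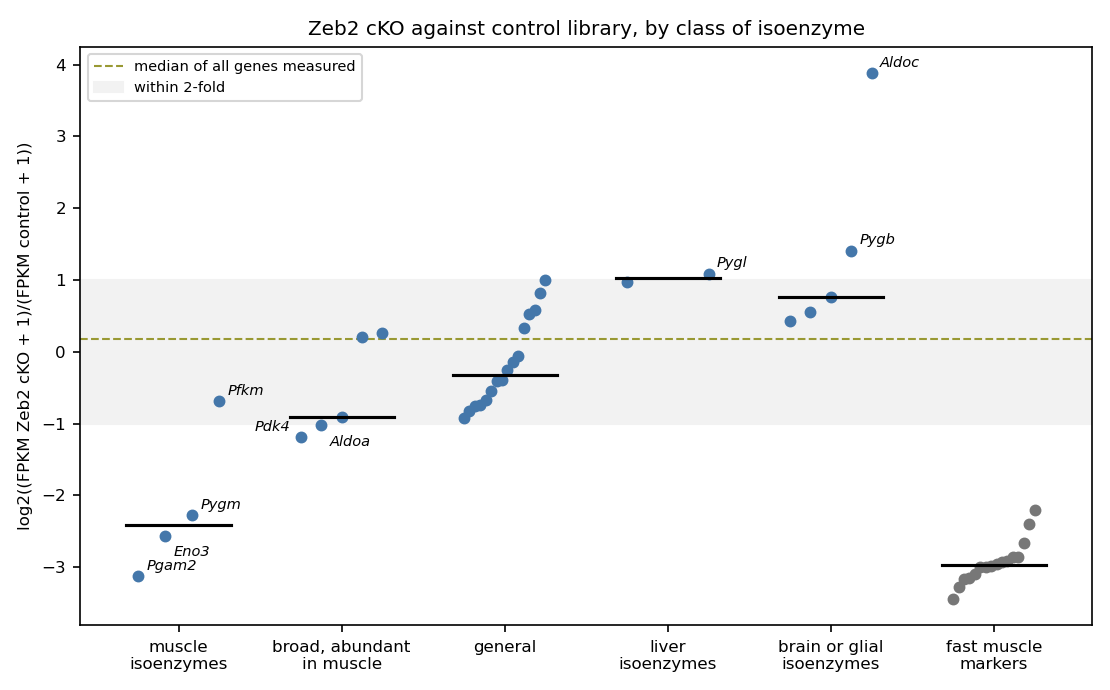
Log2 ratio of each gene, Zeb2 cKO over control with 1 FPKM added to both, by class of isoenzyme and for the 16 muscle markers listed as fast. Each point is 1 gene, black bars are class medians, the dashed line is the median of all genes measured at 0.18, and the grey band marks ratios within 2-fold; muscle isoenzymes lie at -3.12 to -0.69, and brain or glial isoenzymes at 0.43 to 3.88.

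The 5 isoenzymes classed here as brain or glial were Hk1, Pfkp, Aldoc, Eno2 and Pygb, some of which other tissues also make. They had log2 ratios of 0.43 to 3.88 with a median of 0.76, and 2 of them were 2-fold or more higher. Their sum was 46.4 FPKM in control nerve and 174 FPKM in Zeb2 cKO nerve, and Aldoc gave most of the latter. The 2 liver isoenzymes, Pfkl and Pygl, had a median of 1.03. Genes classed as broad and abundant in muscle (Aldoa, Hk2, Gys1, Pdk4 and Pfkfb1, though Pfkfb1 is a form of liver and muscle) had a median of -0.91, with 2 lower. The remaining 16 members were classed as general, although they include Pfkfb2 and Pfkfb4, known as heart and testis forms. They had a median of -0.32 and a range of -0.92 to 1.00, with 0 higher and 0 lower. They are also the bulk of the transcripts, with 1674 FPKM in control nerve and 1245 FPKM in Zeb2 cKO nerve.

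Entry into the pathway lay within 2-fold. Hexokinases trap glucose in the cell by phosphorylating it, and Hk1, the form tied to mitochondria in brain, was at 11.5 FPKM in control nerve and 17.5 FPKM in Zeb2 cKO nerve, 1.51-fold higher (1.42 to 1.62). Hk2, the form of insulin-responsive tissue, was low in both libraries, at 2.72 and 3.32 FPKM. Hk1 made up 80.9% of the hexokinase transcripts in the control and 84.0% in the Zeb2 cKO library, so the balance of this family hardly moved. Gpi1, which turns glucose 6-phosphate into fructose 6-phosphate, was at 86.7 and 78.5 FPKM.

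Phosphofructokinase commits the sugar to glycolysis, and its 3 genes supply subunits that mix into tetramers. Pfkl, the liver subunit (chr10:77449694-77472541), was at 6.44 FPKM in control nerve and 13.5 FPKM in Zeb2 cKO nerve, 2.10-fold higher (1.92 to 2.30), with a log2 ratio of 0.97 that fell just short of the 2-fold rule. Pfkp, the platelet subunit also made in brain, was at 4.12 and 7.67 FPKM, 1.86-fold higher. Both non-muscle subunits were thus higher while Pfkm was lower, and the family sum went from 64.5 to 54.3 FPKM. The share of Pfkm within the family was 83.6% in the control and 60.9% in the Zeb2 cKO library, that of Pfkl 9.98% and 24.9%, and that of Pfkp 6.39% and 14.1%. Pfkm was still the most abundant subunit in both libraries.

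Aldolase showed the widest split between isoenzymes. Aldoc, the aldolase of brain and glia (chr11:78137700-78140262), was at 5.34 FPKM in control nerve and 92.1 FPKM in Zeb2 cKO nerve, 17.3-fold higher (15.4 to 19.4), from an estimated 323 and 3800 reads. By level it stood 8350th among the genes measured in the control and 681st in the Zeb2 cKO library, and its log2 ratio of 3.88 was the 56th highest. Aldoa, the aldolase of muscle and most other tissues (chr7:133938748-133943961), was the most abundant of the 32 genes in both libraries, at 531 and 260 FPKM, 2.04-fold lower (ratio 0.483 to 0.506). The share of Aldoc in aldolase transcripts was 0.996% in the control and 26.1% in the Zeb2 cKO library. The ratio of Aldoa to Aldoc was 99.4 in control nerve and 2.83 in Zeb2 cKO nerve. Aldoa was the higher of the pair in both libraries.

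Aldoa passed the 2-fold rule narrowly, at -1.02, and its transcripts did not move alike. The Aldoa gene is known for alternative promoters, one of which is used mainly in skeletal muscle. The transcript with the most upstream start (133943961 on mm9, minus strand) was at 145 FPKM in control nerve and 12.9 FPKM in Zeb2 cKO nerve, 11.3-fold lower. The principal transcript, which starts 1193 bases downstream, was at 379 and 240 FPKM, 1.58-fold lower. The remaining transcript, whose start is the farthest downstream, was low in both libraries, at 6.08 and 7.04 FPKM. The upstream transcript went from 27.4% to 4.94% of the gene, and when the principal transcript alone stood for Aldoa the log2 ratio was -0.65, within 2-fold. Cufflinks divides reads of shared exons between transcripts by a model, so these transcript levels are estimates. A share of muscle promoter use was not measured, and the upstream start is not named as the muscle one by the tables.

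Pfkm had a similar pattern among its starts. The transcript that starts at 97942491 was at 14.3 FPKM in control nerve and 2.65 FPKM in Zeb2 cKO nerve, 5.39-fold lower, whereas the one that starts at 97938902 was at 36.7 and 27.7 FPKM, 1.32-fold lower. The transcript with the farthest upstream start, at 97923020, was at 3.03 and 2.76 FPKM. The first of these 3 went from 26.4% to 8.0% of the gene, and the second from 68.0% to 83.7%. In Eno3 both transcripts were lower, from 173 to 25.9 FPKM (6.68-fold) and from 97.1 to 19.2 FPKM (5.06-fold). By fold, the Eno3 transcripts were lower by similar factors, while 1 transcript each of Aldoa and Pfkm was lower by a larger factor than the principal one. In FPKM, the Aldoa decrease was shared by the upstream and the principal transcript.

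**Figure D3:**
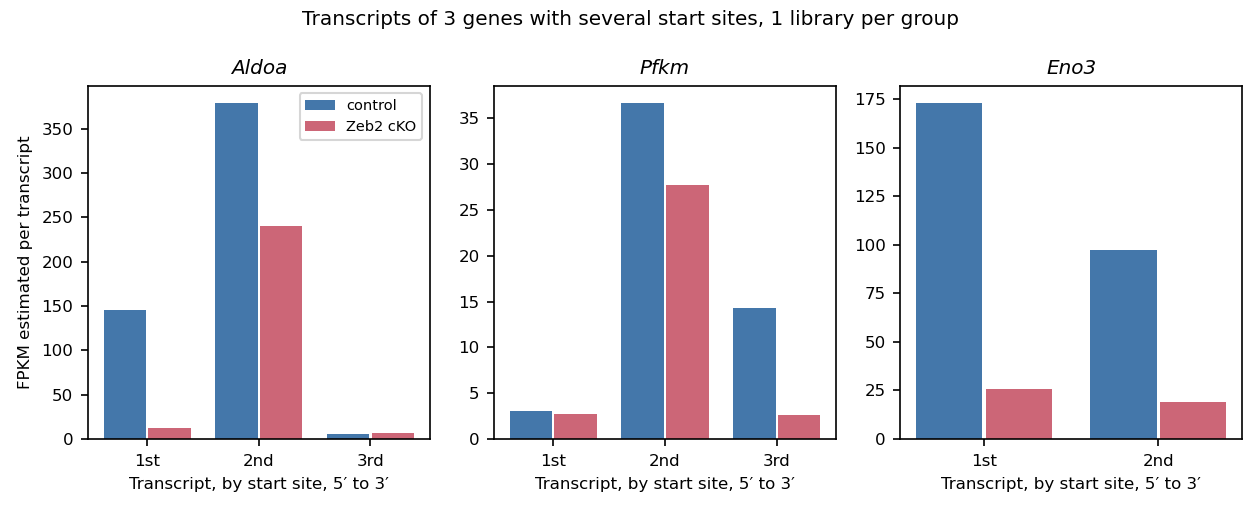
FPKM estimated for each transcript of Aldoa, Pfkm and Eno3, ordered by start site in the direction of transcription, control library in blue and Zeb2 cKO library in red. The first Aldoa transcript drops from 145 to 12.9 FPKM and the last Pfkm transcript from 14.3 to 2.65 FPKM, while the second transcript of each of these 2 genes is lower by a smaller fold, from 379 to 240 FPKM and from 36.7 to 27.7 FPKM.

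The middle of the pathway is run by enzymes with 1 main gene each. Tpi1, which interconverts the triose phosphates, was at 220 FPKM in control nerve and 138 FPKM in Zeb2 cKO nerve, 1.60-fold lower. Gapdh, the step that makes NADH and a common reference gene in expression assays, was at 311 and 165 FPKM, 1.89-fold lower, a log2 ratio of -0.92 that became -1.12 after scaling to the median gene. Pgk1, the first step that yields ATP, was at 129 and 193 FPKM, 1.5-fold higher. These successive enzymes thus lay on opposite sides of no change, all within 2-fold, and the ratio of Gapdh to Pgk1 was 2.41 in control nerve and 0.852 in Zeb2 cKO nerve.

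Phosphoglycerate mutase and enolase, the steps before pyruvate kinase, exchanged their leading isoenzyme or came near to it. Pgam1, the mutase of most tissues, was at 54.7 FPKM in control nerve and 78.8 FPKM in Zeb2 cKO nerve, 1.44-fold higher, so that Pgam2 held 72.1% of the family in the control and 16.3% in the Zeb2 cKO library. Even with more Pgam1, the family sum was 2.08-fold lower, at 196 and 94.2 FPKM. Eno1, the enolase of most tissues, was at 71.6 and 42.6 FPKM, 1.68-fold lower, and Eno2, the neuronal enolase, at 9.35 and 12.9 FPKM, 1.38-fold higher. Eno3 held 76.9% of enolase transcripts in the control and 44.9% in the Zeb2 cKO library, where Eno1 held 42.3%. The enolase sum was 3.49-fold lower, at 351 and 101 FPKM. A near copy of Eno1, Gm5506, was listed at 23.5 and 12.7 FPKM and may share its reads. With Gm5506 added, Eno1 was at 95.1 and 55.3 FPKM and the share of Eno3 at 72.1% and 39.8%, which puts Eno3 behind Eno1 in the Zeb2 cKO library.

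The last steps were lower without a change of balance. Pyruvate kinase M, whose M1 and M2 forms are splice variants that the tables do not separate, was at 207 FPKM in control nerve and 172 FPKM in Zeb2 cKO nerve. Ldha, the lactate dehydrogenase subunit of glycolytic tissue, was at 231 and 137 FPKM, 1.68-fold lower. Ldhb, the subunit of oxidative tissue, was at 249 and 140 FPKM, 1.78-fold lower. The 2 subunits kept nearly the same ratio, 0.930 Ldha to Ldhb in control nerve and 0.984 in Zeb2 cKO nerve. Over the 19 enzymes from hexokinase to lactate dehydrogenase, the sum was 2596 FPKM in control nerve and 1646 FPKM in Zeb2 cKO nerve, 1.58-fold lower, with 1 enzyme 2-fold or more higher and 3 lower.

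**Figure D4:**
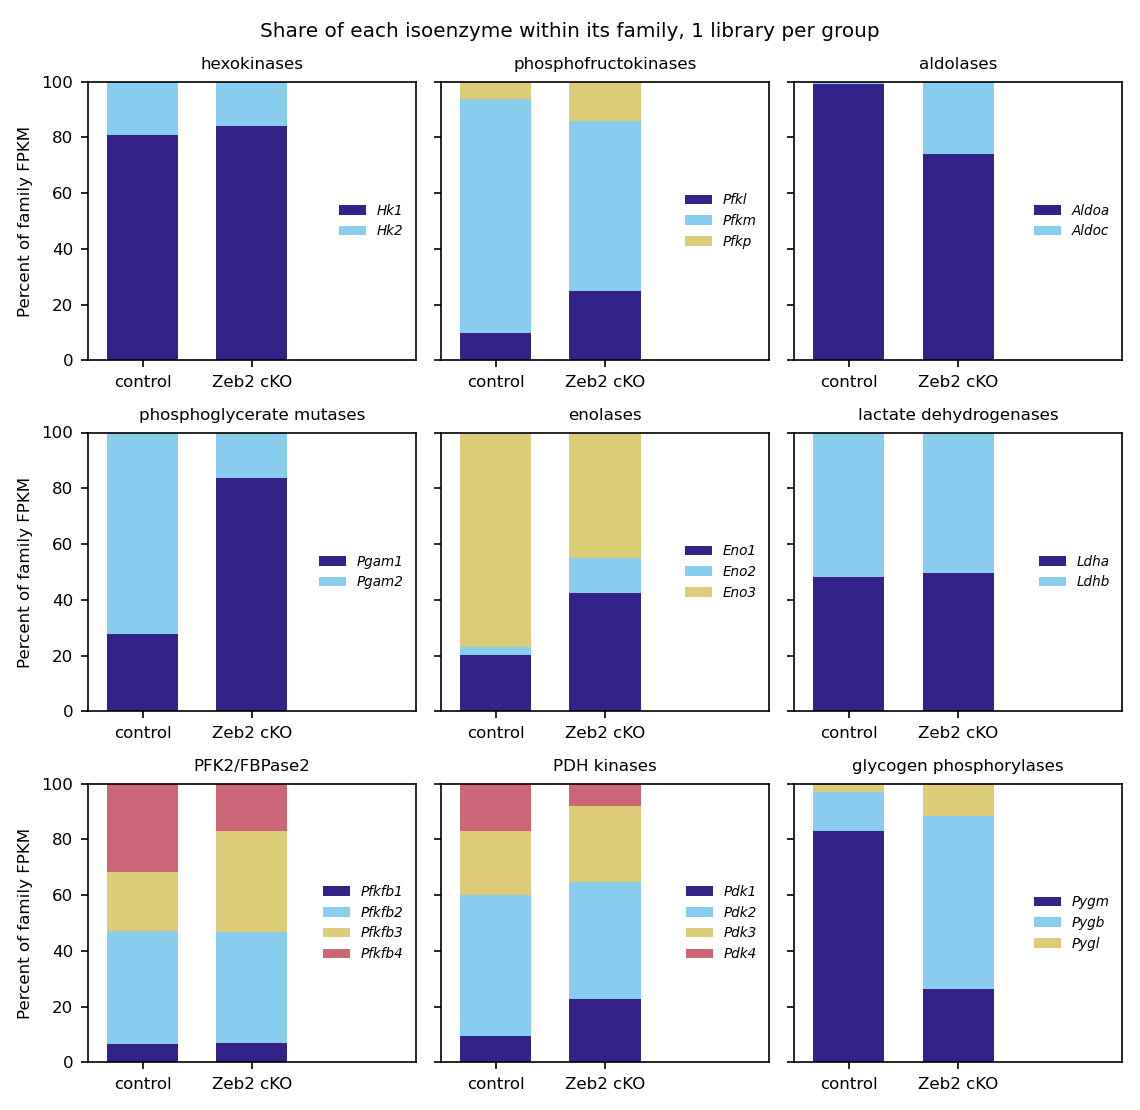
Each isoenzyme as a percent of the summed FPKM of its family, in the control and the Zeb2 cKO library, for the 9 families with more than 1 member. Muscle forms lose share among the phosphofructokinases, mutases, enolases and phosphorylases, Aldoc gains share among the aldolases, and the hexokinases and lactate dehydrogenases keep their balance.

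Among the enzymes that set the level of fructose 2,6-bisphosphate, the activator of phosphofructokinase, levels were low and 0 of 4 passed the 2-fold rule. Pfkfb3, the form with the strongest kinase side, was at 3.26 FPKM in control nerve and 7.49 FPKM in Zeb2 cKO nerve, 2.30-fold higher (2.09 to 2.59), with a log2 ratio that rounds to 1.00 and lay just under the rule. Pfkfb2, a heart form, was at 6.32 and 8.22 FPKM, and Pfkfb4, a testis form, at 4.98 and 3.54 FPKM. The share of Pfkfb3 in the family was 20.9% in the control and 36.2% in the Zeb2 cKO library, and that of Pfkfb4 31.9% and 17.1%. Their order in the Zeb2 cKO library depended on how transcripts were summed: with the top transcript row of each gene Pfkfb3 held 27.1% and Pfkfb4 30.1%, and the log2 ratio of Pfkfb3 was 0.44. Pfkfb1, the form of liver and muscle, was at 1.03 and 1.43 FPKM, and the interval of its ratio, 0.965 to 2.02, includes 1, so its difference lay within counting error.

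Pyruvate dehydrogenase kinases hold back the flow of pyruvate into the citrate cycle by phosphorylating the pyruvate dehydrogenase complex. Pdk4, the kinase that rises in fasting and is abundant in muscle and heart (chr6:5433351-5446278), was at 8.55 FPKM in control nerve and 3.18 FPKM in Zeb2 cKO nerve, 2.68-fold lower (ratio 0.324 to 0.426). With a pseudocount of 5 FPKM its log2 ratio was -0.73. Pdk1, the kinase known as a HIF target, was at 4.75 and 9.18 FPKM, 1.93-fold higher, with a log2 ratio of 0.82. Pdk2 was at 25.3 and 17.1 FPKM and Pdk3 at 11.6 and 11.1 FPKM. Pdk2 was the leading kinase in both libraries, with 50.4% of the family in the control and 42.1% in the Zeb2 cKO library, while the share of Pdk1 was 9.46% and 22.6%. Pdha1, the subunit these kinases phosphorylate, was at 57.0 and 43.4 FPKM, 1.31-fold lower.

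In glycogen metabolism the phosphorylases exchanged places. Phosphorylase releases glucose units from glycogen, and Pygb, the brain form that is also made in astrocytes (chr2:150612532-150657484), was at 16.1 FPKM in control nerve and 44.3 FPKM in Zeb2 cKO nerve, 2.76-fold higher (2.62 to 2.90). Pygl, the liver form (chr12:71291802-71328670), was at 3.32 and 8.17 FPKM, 2.46-fold higher (2.14 to 2.83). Its log2 ratio was 1.09, and 0.90 after scaling to the median gene. Pygm held 82.9% of phosphorylase transcripts in the control and 26.3% in the Zeb2 cKO library, and Pygb 14.2% and 62.2%. The ratio of Pygm to Pygb was 5.85 in control nerve and 0.422 in Zeb2 cKO nerve, and the family sum was 113 and 71.2 FPKM. Gys1, the glycogen synthase of muscle and most tissues other than liver, was at 9.11 and 4.38 FPKM, 2.08-fold lower (ratio 0.428 to 0.540). Its log2 ratio of -0.91 lay just within the rule, and was -1.08 after scaling to the median gene.

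Other genes came from 9 lists: carbohydrate and pyruvate metabolism, regulators of glycolytic genes, and HIF targets outside glycolysis. Of these 111 genes, 96 were measured, with 9 higher, 8 lower and a median log2 ratio of 0.06. Among all genes 8.59% were higher and 6.25% lower, and these shares stand beside the counts of each list below as well. Scaled to the median gene, 7 of the 96 were higher and 10 lower, beside 6.08% and 7.42% of all genes. In the list of glucose entry, 1 of 10 measured genes was higher and 0 were lower: Slc2a1, the glucose transporter of barriers and glia, at 21.1 FPKM in control nerve and 56.4 FPKM in Zeb2 cKO nerve (2.68-fold). Slc2a4, the insulin-responsive transporter of muscle and fat, was at 9.86 and 4.93 FPKM, and Bpgm, which makes 2,3-bisphosphoglycerate in red cells, at 15.0 and 25.0 FPKM. Markers of red cells (3 of 5 measured passed the rule as higher, sum 121 FPKM in control nerve and 362 FPKM in Zeb2 cKO nerve), fat (4 of 5, 216 and 526 FPKM), perineurium (4 of 4, 35.6 and 190 FPKM) and fibroblasts (3 of 5, 2339 and 4070 FPKM) were also higher. Those of neurons (0 of 4 measured of 8, 15.9 and 17.0 FPKM) and macrophages (0 of 6, 46.6 and 48.8 FPKM) had 0 genes past the rule. None of these markers was at 0 in either library, and their part in the values of these genes, of the higher isoenzymes above and of Slc16a1 below was not tested.

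Of 22 other glycogen genes measured, 18 lay within 2-fold, 1 was higher and 3 were lower, with a median log2 ratio of 0.04, beside 8.59% higher and 6.25% lower among all genes. Ppp1r3b, the glycogen targeting subunit of protein phosphatase known from liver, was at 1.24 FPKM in control nerve and 6.32 FPKM in Zeb2 cKO nerve, 5.11-fold higher. Ppp1r3a, its skeletal muscle counterpart, was at 2.87 and 0.475 FPKM, 6.05-fold lower. Phkg1, the muscle catalytic subunit of phosphorylase kinase, was at 8.73 and 2.25 FPKM, 3.88-fold lower. Stbd1, a glycogen-binding protein abundant in muscle, was at 14.0 and 5.40 FPKM, 2.59-fold lower. All 3 lower genes are known from muscle, but genes known from muscle did not all move this way. Phka1, the muscle alpha subunit of phosphorylase kinase, was at 3.48 and 4.92 FPKM, 1.41-fold higher and within 2-fold. The part of muscle RNA in these values was not tested.

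Among transporters of lactate and pyruvate, 2 of 8 were higher and 1 lower. Slc16a8 (MCT3), known from the retinal pigment epithelium, was at 1.46 FPKM in control nerve and 11.7 FPKM in Zeb2 cKO nerve, 8.03-fold higher. Slc16a1 (MCT1), the lactate transporter of Schwann cells and perineurium, was at 31.3 and 89.6 FPKM, 2.86-fold higher. Slc16a3 (MCT4), the exporter of glycolytic muscle, was at 8.64 and 3.32 FPKM, 2.60-fold lower. The transporters thus differed by gene, and the median of this list was 0.61.

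In gluconeogenesis 2 of 6 were higher and 1 lower. Fbp2, the muscle fructose bisphosphatase, was at 13.2 FPKM in control nerve and 2.58 FPKM in Zeb2 cKO nerve, 5.13-fold lower. Pck1 and Pck2, the cytosolic and mitochondrial forms of phosphoenolpyruvate carboxykinase, were 3.29-fold and 2.26-fold higher, the second not after scaling to the median gene. In the pentose phosphate pathway 0 of 8 were higher and 2 were lower. These were transketolase Tkt at 102 and 39.1 FPKM (2.60-fold) and transaldolase Taldo1 at 165 and 75.3 FPKM (2.20-fold). Both belong to the non-oxidative arm, whose other listed genes lay within 2-fold. H6pd, the enzyme of this pathway in the endoplasmic reticulum, was at 9.09 and 15.8 FPKM.

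Outside the members, among which Pdk4 was lower, the lists for the mitochondrial end of the route had no gene past the 2-fold rule. Of 7 measured genes of the pyruvate dehydrogenase complex and its phosphatases and 12 of the citrate cycle, 0 were higher and 0 lower. Among all genes 8.59% were higher and 6.25% lower, so few calls would be looked for in lists of this size. The medians of the 2 lists were -0.18 and -0.24. The phosphatases that undo the work of the Pdk kinases were at 6.16 and 9.61 FPKM for Pdp1 and at 3.31 and 1.55 FPKM for Pdp2. Among the citrate cycle genes, Suclg2 and Suclg1, subunits of succinyl-CoA ligase, were at 9.39 and 18.1 FPKM and at 57.8 and 38.6 FPKM. Pdhx, the binding protein of the complex, was at 9.77 and 7.95 FPKM.

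Of 10 measured regulators of glycolytic genes, 2 were higher and 0 lower. Epas1, the HIF-2 alpha subunit abundant in endothelium, was at 13.3 FPKM in control nerve and 35.3 FPKM in Zeb2 cKO nerve (2.66-fold). Ppargc1a, a coactivator of mitochondrial genes, was at 1.69 and 5.46 FPKM (3.24-fold), and Prkaa2, the AMP kinase subunit of muscle, at 1.69 and 0.554 FPKM. HIF targets outside glycolysis did not move one way, with 1 of 14 higher and 1 lower and a median of 0.38. Ddit4 was at 21.8 and 46.8 FPKM, 2.15-fold higher but not after scaling to the median gene, and Bhlhe40 at 8.96 and 17.9 FPKM. Ndrg1, which myelinating Schwann cells also make in large amounts, was at 510 and 138 FPKM, 3.69-fold lower. The 6 measured endothelial markers had a median log2 ratio of 0.72 and summed to 100 and 170 FPKM, with 0 of them past the 2-fold rule or at 0, and their part in the level of Epas1 was not tested.

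Promoters are shown for the upstream and the principal Aldoa start, whose transcripts differed in fold. Also shown are those of the genes with the 3 lowest log2 ratios (Pgam2, Eno3 and Pygm) and the highest (Aldoc). Each run is the 250 bases before a start in the RefSeq promoter table (GRCm38.p6), 5′ to 3′ on the strand of the gene. Capitals mark matches on either strand to the letters searched. One motif was CANNTG, the E-box that many muscle and neural regulators read. Another was the E-box form that Zeb2 is known to bind, CACCTG, so each of its matches also counts as an E-box. The core shared by HIF and MYC elements was searched as ACGTG, which can overlap an E-box. The MEF2 element, known from muscle genes, is given by name only and was added after the windows had been read. A match on the opposite strand is printed as it reads on the strand of the gene.
Aldoa, upstream start, chr7:126800448-126800697, minus strand: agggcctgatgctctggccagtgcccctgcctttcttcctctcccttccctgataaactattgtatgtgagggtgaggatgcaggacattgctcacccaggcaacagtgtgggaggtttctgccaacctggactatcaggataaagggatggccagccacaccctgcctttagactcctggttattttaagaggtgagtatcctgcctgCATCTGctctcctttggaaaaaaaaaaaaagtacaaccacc
Aldoa, principal start, chr7:126799255-126799504, minus strand: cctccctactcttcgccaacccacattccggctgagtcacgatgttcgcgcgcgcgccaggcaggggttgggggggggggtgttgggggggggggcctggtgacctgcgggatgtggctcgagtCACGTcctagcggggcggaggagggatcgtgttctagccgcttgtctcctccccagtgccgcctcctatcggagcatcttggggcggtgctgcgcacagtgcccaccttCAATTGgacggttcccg
Pgam2, chr11:5803797-5804046, minus strand: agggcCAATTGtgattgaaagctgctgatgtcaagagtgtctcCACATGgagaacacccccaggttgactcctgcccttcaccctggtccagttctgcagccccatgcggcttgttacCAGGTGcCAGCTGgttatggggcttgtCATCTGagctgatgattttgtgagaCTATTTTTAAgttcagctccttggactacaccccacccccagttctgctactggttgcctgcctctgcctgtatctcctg
Eno3, chr11:70656926-70657175, plus strand: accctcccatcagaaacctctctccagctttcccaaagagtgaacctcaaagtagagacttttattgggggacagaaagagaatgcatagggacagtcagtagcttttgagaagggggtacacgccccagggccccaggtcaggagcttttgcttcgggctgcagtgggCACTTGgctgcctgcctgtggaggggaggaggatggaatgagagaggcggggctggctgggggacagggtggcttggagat
Pygm, chr19:6384158-6384407, plus strand: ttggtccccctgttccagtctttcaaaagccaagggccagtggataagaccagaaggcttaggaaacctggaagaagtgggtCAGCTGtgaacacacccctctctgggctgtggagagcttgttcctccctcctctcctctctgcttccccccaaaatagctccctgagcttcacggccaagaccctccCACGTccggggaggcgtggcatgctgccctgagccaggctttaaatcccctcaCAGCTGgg
Aldoc, chr11:78323948-78324197, plus strand: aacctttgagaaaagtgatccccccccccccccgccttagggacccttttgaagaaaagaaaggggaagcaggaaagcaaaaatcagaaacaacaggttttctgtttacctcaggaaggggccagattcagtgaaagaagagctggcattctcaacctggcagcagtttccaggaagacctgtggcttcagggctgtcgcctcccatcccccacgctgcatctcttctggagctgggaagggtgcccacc

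The Aldoa upstream start had 1 E-box, 41 bases before the start, and no other match. The principal Aldoa start had an ACGTG match 126 bases and an E-box 17 bases before it. The window of the remaining Aldoa start (chr7:126799129-126799428, not printed) had 1 ACGTG and 2 E-box matches. Pgam2 had 5 E-boxes, one of them a CACCTG match 132 bases before the start, and a MEF2 match 80 bases before it. Eno3 had 1 E-box in the printed run, 81 bases before the start, and Pygm had E-boxes 168 and 8 bases and an ACGTG match 61 bases before the start. The printed Aldoc run had none of these letters, and the window of another Aldoc start in the table (chr11:78322823-78323122, not printed) had 1 ACGTG and 1 E-box match. A match describes the letters only, and a run without one says nothing of whether a factor binds.

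All 32 members were found in the promoter table by symbol, with 51 windows among its 32851, each window running past the start by a short stretch that is not printed. ACGTG stood in 21 of the 51 windows (41.2%), in 17 of the 32 genes, and in 19.6% of all windows. CACCTG stood in 7 of the 51 (13.7%), in 5 genes, and in 20.2% of all windows. CANNTG stood in 37 of the 51 (72.5%) and in 72.3% of all, and the MEF2 element in 2 of the 51 (3.92%), those of Pgam2 and 1 start of Pfkfb1, and in 3.19% of all. Windows of 1 gene can overlap, so these shares are descriptions.

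No source used here gives the strand of the reads, and 7 members overlap another gene on the map (Eno1, Hk1, Pdha1, Pfkfb2, Pfkm, Pfkp and Tpi1). Apart from Gm5506, the overlapping genes were low beside the members they overlap, except Pitrm1, which at 10.8 and 11.6 FPKM was above Pfkp in both libraries.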

How the data were processed

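Total RNA of pooled sciatic nerves was made into libraries with an Illumina TruSeq kit, per the labels' protocols. The authors used CASAVA, TopHat, Cufflinks and Cuffdiff with the mm9 mouse genome, according to the submitters' processing notes, which give no versions and no roles. The deposited values are FPKM per RefSeq transcript, per the file headers, beside a deposited coverage signal, the average number of reads over a base of the transcript. The tables cover 28107 transcript rows. The 295 rows whose status was not OK in one or both libraries were left out, none of them a member's, and FPKM was summed per symbol.

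Both samples of a group cite the same table in the labels, so a table stands for its group. Reads were estimated as coverage times length divided by 52.6 bases, the median of the cluster of smallest nonzero values (479 values). By coverage per FPKM the control library was 1.47 times as deep. Ratios used a pseudocount of 1 FPKM. Count models were not applied to FPKM.

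The members, lists and classes were chosen with earlier results of these data known. Every member is named, with the 3 largest absolute ratios of each other list and the genes behind counts of 5 or fewer. Phka1 is named in addition to this rule. One gene that this rule names is not reported here. Of marker lists, counts and sums are given. All 185 list entries matched a symbol, 4 by another name. Alternatives were pseudocounts, filters, fold thresholds, 2 scalings, every status and the top transcript row. A planned comparison of protein sequences was not made. Counting code was tested on simulated data. Python 3.11.15, pandas 2.3.3 and scipy 1.17.1 were used.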

Additional observations from a re-analysis of the deposited data

How the results depend on the processing

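Of 452 alternative values over 93 results none was labelled reversed, a label open only to log2 ratios and medians of at least 1 in size. Counts and shares could not receive it. All 32 members kept 1 sign under up to 8 settings. Pseudocounts, filters and every status cannot change the sign of a member, so only the 2 scalings and the top transcript row could have done so. The 3 higher members became 5 with a pseudocount of 0.1 FPKM, 7 at 1.5-fold and 1 at 3-fold. The 5 lower members became 8 after scaling to the median gene, 12 at 1.5-fold and 3 at 3-fold. For the genes of the other lists the 9 higher became 4 with a pseudocount of 5 FPKM, 22 at 1.5-fold and 2 at 3-fold. The 8 lower became 4, 17 and 2. The muscle isoenzyme median of -2.41 moved to -2.26 with a pseudocount of 5 FPKM and to -2.61 after scaling to the median gene. The median of the other members, 0.08, moved to -0.06 with a mean of at least 5 FPKM and to -0.10 after scaling to the median gene. The difference of the medians, -2.49, moved to -2.28 with a pseudocount of 5 FPKM and to -2.36 with a mean of at least 5 FPKM. With the top transcript row alone, the share of Pfkm was 77.6% in the control and 56.6% in the Zeb2 cKO library, and that of Eno3 68.1% and 31.9%. With Gm5506 added to Eno1, an alternative chosen after seeing the data, the share of Eno3 was 72.1% and 39.8%. The cause of these moves was not tested beyond the change each alternative makes. Depth limits the low members most, such as Pfkfb1.

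No paired analysis was possible because each group has values from a single library. Leaving out a replicate was not possible for the same reason.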
